A study of Mus musculus with 36 samples.

Results

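The genes described here encode the proteins of the mitochondrial ribosome. They were taken as the mouse genes whose symbols start with *Mrpl* or *Mrps* followed by a number, with pseudogene symbols left out and with a mean of at least 10 counts per library. Of 46603 genes in the count tables, 78 had such a symbol and 77 passed the minimum, the same 77 at both stages. The gene left out was *Mrpl53*, with means of 4.5 counts per library at E12.5 and 8.8 at E10.5, and 88.0% of its exon bases are shared with neighbouring genes. The 77 genes comprise 50 of the large subunit, 26 of the small subunit, and *Mrps36*, which carries a ribosomal symbol but is now known as a subunit of the oxoglutarate dehydrogenase complex.

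Mitochondria carry their own ribosomes, which translate the few messages of the mitochondrial genome, all of them for subunits of the respiratory chain and ATP synthase. The ribosomal RNAs come from the mitochondrial genome, whereas every ribosomal protein is encoded in the nucleus, made in the cytosol and imported, so that the complex depends on many nuclear genes at once. Some of the proteins have bacterial counterparts and others were added in the mitochondrial lineage. Loss of the mitochondrial ribosome lowers respiratory capacity, and tissues with a high energy demand, such as the developing brain, are among those affected in human disease.

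RNA sequencing was performed on C57Bl/6J mouse embryos of an allelic series of *Chd8*, which encodes a chromatin remodeller. At E12.5 the neocortex of single embryos was used from Chd8 +/+, Chd8 +/- (heterozygous for a null allele lacking exon 3), Chd8 neo/neo (mild hypomorph) and Chd8 neo/- (severe hypomorph) embryos, n = 3 each. In the neo allele a neomycin cassette downstream of exon 3 lowers expression, and this allele is present in both hypomorphs. At E10.5 the telencephalic vesicles of 2 embryos were pooled per library, n = 3 each, from Ctrl embryos and from cKO embryos with sox1-Cre, which deletes the loxP-flanked exon 3 in the neural lineage and leaves other cells of the tissue, such as vessels and mesenchyme, with undeleted alleles. The Ctrl group is labelled as a mixture of Chd8f/f and Chd8 f/+ embryos, so floxed alleles are shared by both E10.5 groups. The 2 stages were sequenced and counted as separate tables, and each comparison below stays within a stage.

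Library depth was 38774591 to 61051667 counts at E12.5 and 49632937 to 68488879 at E10.5, and mean counts per library of the 77 genes ran from 149.2 (*Mrps34*) to 4018 (*Mrps5*) at E12.5 and from 306.7 (*Mrps34*) to 5613 (*Mrpl12*) at E10.5. Telencephalic markers were present in every library, for example *Lhx2* at 357.9 CPM or more at E12.5 and 242.6 or more at E10.5 (CPM, counts scaled to a fixed library total after scaling of library sizes). The ventral marker *Dlx1* was also present, at 190.6 CPM or more at E12.5. Of the late neuronal markers *Neurod6* was at 0 at E10.5. Summed neuronal markers were 3726 to 4402 CPM in Chd8 +/+, 3049 to 3594 in Chd8 neo/neo and 3365 to 3799 in Chd8 neo/- libraries. Summed blood markers were 2982 to 3666 CPM in Chd8 +/+ and 4304 to 6863 in Chd8 neo/-, and mesenchymal markers were 640.4 to 735.8 CPM in Ctrl and 832 to 1002 in cKO. By edgeR, 3 of 8 neuronal markers were lower in the mild and 2 in the severe hypomorph, against 4.45% and 5.99% of all genes. In the severe hypomorph 3 of 6 blood markers were higher, against 5.48%, and in cKO 3 of 6 mesenchymal markers, against 5.75%. Single markers of other types were also called. In the mild hypomorph a telencephalic marker was higher and an endothelial marker lower. In cKO a ventral marker was lower, and an endothelial and a microglial marker were higher. In bulk tissue, fewer cells of a type and less RNA per cell cannot be told apart.

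*Chd8* itself was measured at 237.1, 234.6 and 239.5 CPM in Chd8 +/+ and at 165.3, 170.2 and 164.6 in Chd8 +/- libraries. It was 213.1, 202.5 and 211.1 CPM in the mild and 158.4, 146.6 and 142.1 in the severe hypomorph. All 3 mutant groups lay below Chd8 +/+ (log2 fold changes -0.51, -0.18 and -0.67, largest edgeR adjusted p = 0.0201), the call in the mild hypomorph held in 8 of 14 alternatives, and the summed exon count was higher in Chd8 neo/neo than in Chd8 +/-. At E10.5 *Chd8* was 160.0, 168.0 and 183.6 CPM in Ctrl and 120.5, 125.3 and 115.8 in cKO. The count covers all exons, and message without exon 3, or spliced into the cassette, is still counted, so these values are not levels of functional message.

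In Chd8 +/+ neocortex the 77 genes spanned 2.94 to 87.0 CPM per kilobase of exon not shared with another gene, with a median of 16.9. Per exon length, the highest levels were those of *Mrpl42* (87.0 ± 7.32, SD, n = 3), *Mrps21* (46.8 ± 2.80), *Mrpl28* (41.8 ± 3.85), *Mrpl34* (38.3 ± 3.55) and *Mrpl12* (36.7 ± 2.37), the last a stalk protein of the large subunit that also binds mitochondrial RNA polymerase. *Mrpl28* and *Mrpl34*, and *Mrpl34* and *Mrpl12*, differed by less than the larger SD of each pair, whereas *Mrpl42* and *Mrps21* stood apart from their neighbours by more. The lowest were *Mrps10* (3.64 ± 0.164), *Mrps35* (3.49 ± 0.0391) and *Mrpl33* (2.94 ± 0.00176). The gene models of these 3 are long, with 8079, 8631 and 7065 unshared exon bases, and a level per length falls with the length of the model.

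In E10.5 Ctrl tissue the range was 4.44 to 115.2 CPM per kilobase with a median of 26.1, and the same 5 genes led, with *Mrpl12* at 72.4 ± 5.08, *Mrps21* at 72.3 ± 8.97 and *Mrpl28* at 69.96 ± 6.12 not separable by their SDs. *Mrpl48* was lowest at E10.5 at 4.44 ± 0.378, followed by *Mrps10* and *Mrpl33*. The order of the 77 genes at the stages was alike (Spearman's rho = 0.968 across genes, which share gene lengths and counting). The stages were counted as separate tables and differ in dissection and pooling, so the higher values at E10.5 were not tested.

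**Figure D1:**
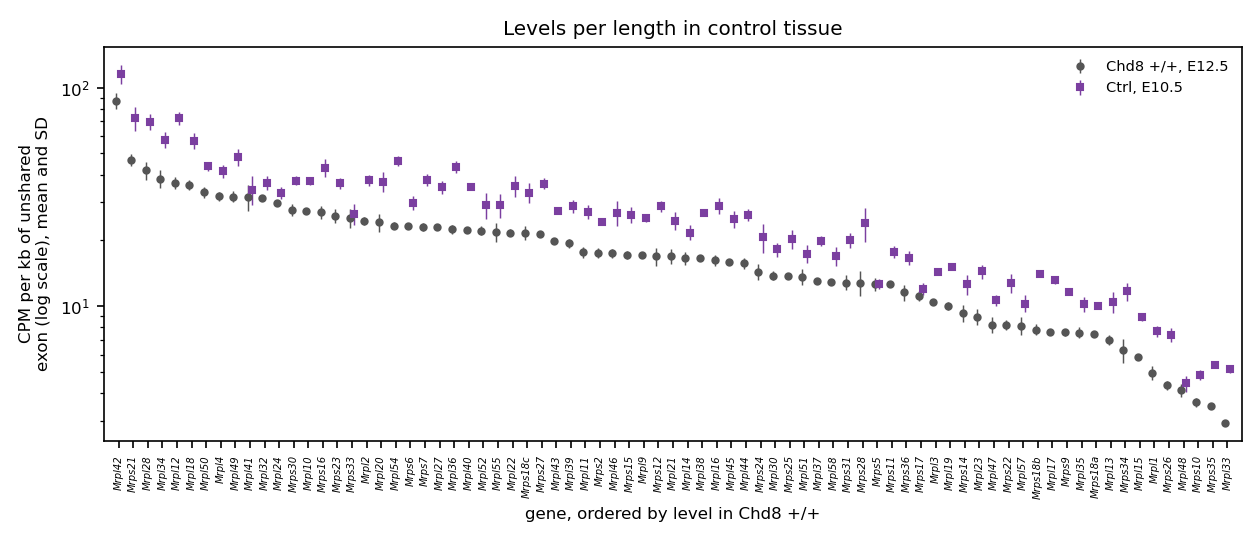
Level of each of the 77 genes in CPM per kilobase of unshared exon on a log scale, as mean and SD of 3 libraries, in Chd8 +/+ neocortex at E12.5 (circles) and Ctrl telencephalon at E10.5 (squares). Genes are ordered by their level in Chd8 +/+, from *Mrpl42* at 87.0 to *Mrpl33* at 2.94.

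To see whether the loss of 1 *Chd8* allele altered these genes, Chd8 +/- was compared with Chd8 +/+. None of the 77 genes was called at an adjusted p under 0.05 by edgeR or by DESeq2, where edgeR called 0.0213% of the 18810 genes tested. At an unadjusted p under 0.05, 3 were higher and 1 lower, against 3.13% and 3.2% of all genes. The median log2 fold change of the 77 was 0.015, against 0.001 for all genes tested, with a range of -0.17 to 0.15. In 4 genes every Chd8 +/- library lay above every Chd8 +/+ library and in 4 below, against 5.48% and 5.9% of all genes.

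The smallest unadjusted p belonged to *Mrpl27*, the counterpart of a bacterial protein near the peptidyl transferase centre, where peptide bonds form. It was 20.98, 21.4 and 20.5 CPM in Chd8 +/+ and 24.6, 22.7 and 22.5 in Chd8 +/-, a log2 fold change of 0.15 with an SE of 0.0528 (edgeR adjusted p = 0.659). The groups did not overlap, but the difference did not pass the test. *Mrpl33*, another large subunit protein with a bacterial counterpart, was 20.77, 20.74 and 20.75 CPM in Chd8 +/+ and 19.31, 18.79 and 19.35 in Chd8 +/- (log2 fold change -0.12, edgeR adjusted p = 0.75). The small subunit gene *Mrps33* was 42.2 ± 4.41 and 46.9 ± 3.82 CPM in these groups (SD, n = 3, edgeR adjusted p = 0.79), with overlapping libraries.

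In the mild hypomorph, 7 of the 77 genes were upregulated against Chd8 +/+ and 0 were downregulated, where edgeR called 3.71% of all genes higher and 4.45% lower. Among the 77, 64 had a positive fold change, and their median was 0.069, against 0.005 for all genes. Of the 7, 6 encode large subunit proteins (*Mrpl54*, *Mrpl17*, *Mrpl43*, *Mrpl40*, *Mrpl23* and *Mrpl2*) and 1 a small subunit protein (*Mrps26*). At an unadjusted p under 0.05, 20 were higher and 1 lower, against 12.1% and 13.2% of all genes. The lower one was *Mrpl32*, which was 23.2, 24 and 24.6 CPM in Chd8 +/+ and 20.1, 21.4 and 19.9 in Chd8 neo/neo (log2 fold change -0.23, edgeR adjusted p = 0.0572). It did not pass this test but was called lower by DESeq2, without the count filter, and with length and GC trends removed. Every Chd8 neo/neo library was above every Chd8 +/+ library in 18 genes (23.4%), against 12.5% of all genes, and below in 3, against 13.5%.

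In the severe hypomorph, 14 of the 77 genes (18.2%) were upregulated and 0 downregulated, against 5.48% and 5.99% of all genes. The median log2 fold change was 0.103, against 0.001 for all genes, and 64 of the 77 were again positive. The 14 comprised 8 of the 50 large subunit genes and 6 of the 26 small subunit genes. Median fold changes were 0.097 for the large and 0.114 for the small subunit on the log2 scale. Both hypomorphs were compared with the same Chd8 +/+ libraries, so their fold changes are not independent. At an unadjusted p under 0.05, 31 genes were higher and 3 lower, against 13.3% of all genes in each direction. In 35 genes every Chd8 neo/- library was above every Chd8 +/+ library, against 16.4% of all genes, and in 4 below, against 16.9%.

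The largest change in the severe hypomorph was that of *Mrpl40*, a large subunit protein with no bacterial counterpart (ENSMUSG00000022706, chr16:18872018-18876767, minus strand). It was 27.2, 27.1 and 27.4 CPM in Chd8 +/+, 28.3, 25.9 and 29.9 in Chd8 +/-, 31.6, 34.7 and 30.8 in the mild and 33.8, 34.9 and 34.7 in the severe hypomorph. All 6 hypomorph libraries were above all 6 Chd8 +/+ and Chd8 +/- libraries. The log2 fold changes against Chd8 +/+ were 0.25 with an SE of 0.0591 (edgeR adjusted p = 0.0213) in the mild and 0.34 with an SE of 0.0591 (adjusted p = 0.00265) in the severe hypomorph. The call in the mild hypomorph held in 7 of 14 alternatives.

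*Mrpl17*, the counterpart of a conserved bacterial large subunit protein (ENSMUSG00000030879, chr7:105806658-105811099, minus strand), was 31.3, 31.6 and 31.99 CPM in Chd8 +/+ and 34.6, 31.2 and 33.9 in Chd8 +/-. It was 36.2, 39.2 and 36.3 CPM in the mild and 37.7, 40.2 and 39.0 in the severe hypomorph. The hypomorphs again lay above both other groups. Its log2 fold changes were 0.24 with an SE of 0.0528 (edgeR adjusted p = 0.0166) and 0.30 with an SE of 0.0528 (adjusted p = 0.00272). The call in the mild hypomorph held in 11 of 14 alternatives.

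*Mrps10*, a small subunit protein with a bacterial counterpart (ENSMUSG00000034729, chr17:47368887-47381417, plus strand), was 30.3, 29.99 and 27.9 CPM in Chd8 +/+ and 31.5, 29.6 and 29.6 in Chd8 +/-. It was 33.1, 31.2 and 32.8 CPM in the mild and 34.7, 34.3 and 35.4 in the severe hypomorph. It passed the test in the severe hypomorph (log2 fold change 0.24 with an SE of 0.0503, edgeR adjusted p = 0.00722) but not in the mild one (0.14 with an SE of 0.0503, adjusted p = 0.0986). The 3 genes *Mrpl40*, *Mrpl17* and *Mrps10* were the ones whose calls in the severe hypomorph held under all 14 alternative analyses, and all 3 genes are free of exon bases shared with other genes.

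*Mrpl54*, a large subunit protein of the mitochondrial lineage, showed the largest called change in the mild hypomorph. It was 18.98, 20.1 and 18.7 CPM in Chd8 +/+, 20.3, 21.3 and 19.5 in Chd8 +/-, 22.4, 25.6 and 23.6 in the mild and 22.3, 24.7 and 23.3 in the severe hypomorph. Both hypomorphs were above the highest library of the other groups. The log2 fold changes were 0.31 with an SE of 0.0636 (edgeR adjusted p = 0.0113) and 0.28 with an SE of 0.0637 (adjusted p = 0.0116).

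*Mrpl2* was also called in each hypomorph. It is the counterpart of a bacterial protein at the heart of the large subunit, and was 28.8 ± 1.21 CPM in Chd8 +/+, 32.6 ± 1.09 in the mild and 32.6 ± 0.694 in the severe hypomorph (SD, n = 3; edgeR adjusted p = 0.0391 and 0.0321). Its call was kept in 3 of 14 alternatives in the mild and 4 in the severe hypomorph. The remaining mild hypomorph calls were *Mrpl23* (log2 fold change 0.26, edgeR adjusted p = 0.03), *Mrpl43* (0.26, adjusted p = 0.0198) and *Mrps26* (0.22, adjusted p = 0.0326), which held in 7, 9 and 5 of 14 alternatives, *Mrps26* in none that left out a library. In the severe hypomorph these 3 had log2 fold changes of 0.19, 0.19 and 0.17 and did not pass the test.

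Of the 14 calls in the severe hypomorph, 6 were of small subunit genes. *Mrps12*, whose product sits at the decoding centre, was 16.6, 19.6 and 16.8 CPM in Chd8 +/+ and 21.3, 21.2 and 21.1 in Chd8 neo/- (log2 fold change 0.27, edgeR adjusted p = 0.0312). *Mrps16* rose from 15.2 ± 1.02 to 18.1 ± 0.638 CPM (SD, n = 3, edgeR adjusted p = 0.0259). *Mrps6* rose from 20.8 ± 0.427 to 24.5 ± 1.75 CPM (edgeR adjusted p = 0.0221), although 15.1% of its exon bases are shared with *Slc5a3*. The well expressed *Mrps21* rose from 34.6 to 40.8 CPM on average (edgeR adjusted p = 0.0227). The calls of *Mrps12* and *Mrps16* each held in 7 of 14 alternatives, that of *Mrps6* in 8 and that of *Mrps21* in 9.

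Among large subunit genes, *Mrpl10*, which anchors the stalk, rose in the severe hypomorph from 40.1 ± 0.706 to 45.3 ± 0.369 CPM (SD, n = 3, edgeR adjusted p = 0.0161). *Mrpl58*, a peptidyl-tRNA hydrolase built into the large subunit that can release stalled chains, rose from 42.8 ± 0.805 to 48.5 ± 1.19 CPM (edgeR adjusted p = 0.0285). These calls held in 6 and 5 of 14 alternatives. The other calls were *Mrpl22*, *Mrpl14* and *Mrps33*, with log2 fold changes of 0.23, 0.22 and 0.23, held in 8, 3 and 5 of 14. The stalk protein gene *Mrpl12* was 48.9 ± 3.16 in Chd8 +/+ and 54.3 ± 1.605 CPM in Chd8 neo/-, with no overlap, and did not pass the test (edgeR adjusted p = 0.103).

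The 3 paralogs of *Mrps18* occupy different places in the ribosome, *Mrps18a* in the large and *Mrps18b* and *Mrps18c* in the small subunit. None was called. Their log2 fold changes in the severe hypomorph were 0.03 for *Mrps18a*, 0.11 for *Mrps18b* and 0.19 for *Mrps18c*, and only the last had groups without overlap (16.3, 18.7 and 18.7 against 20.3, 20.02 and 20.9 CPM). Exon bases shared with other genes amount to 30.5% in *Mrps18b* and 23.2% in *Mrps18c*.

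Some fold changes were negative without passing the test. *Mrpl33* was 18.7, 18.2 and 18.9 CPM in Chd8 neo/-, below all Chd8 +/+ libraries (log2 fold change -0.16 with an SE of 0.0488, edgeR adjusted p = 0.0525), and 19.2, 19.6 and 20.1 in Chd8 neo/neo. *Mrps28* was 9.36, 11.5 and 9.14 CPM in Chd8 +/+, 9.02, 8.79 and 8.70 in the mild and 8.44, 7.86 and 8.45 in the severe hypomorph (log2 fold change in the latter -0.28, edgeR adjusted p = 0.0966). *Mrps34*, singled out after its values were seen, had the most positive fold change in the mild hypomorph (0.37, edgeR adjusted p = 0.17) and -0.02 in the severe one, a sign that turned when any of 3 single libraries was left out. Its level was near 3 CPM, and 77.8% of its exon bases are shared with *Nme3* and *Mapk8ip3*.

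**Figure D2:**
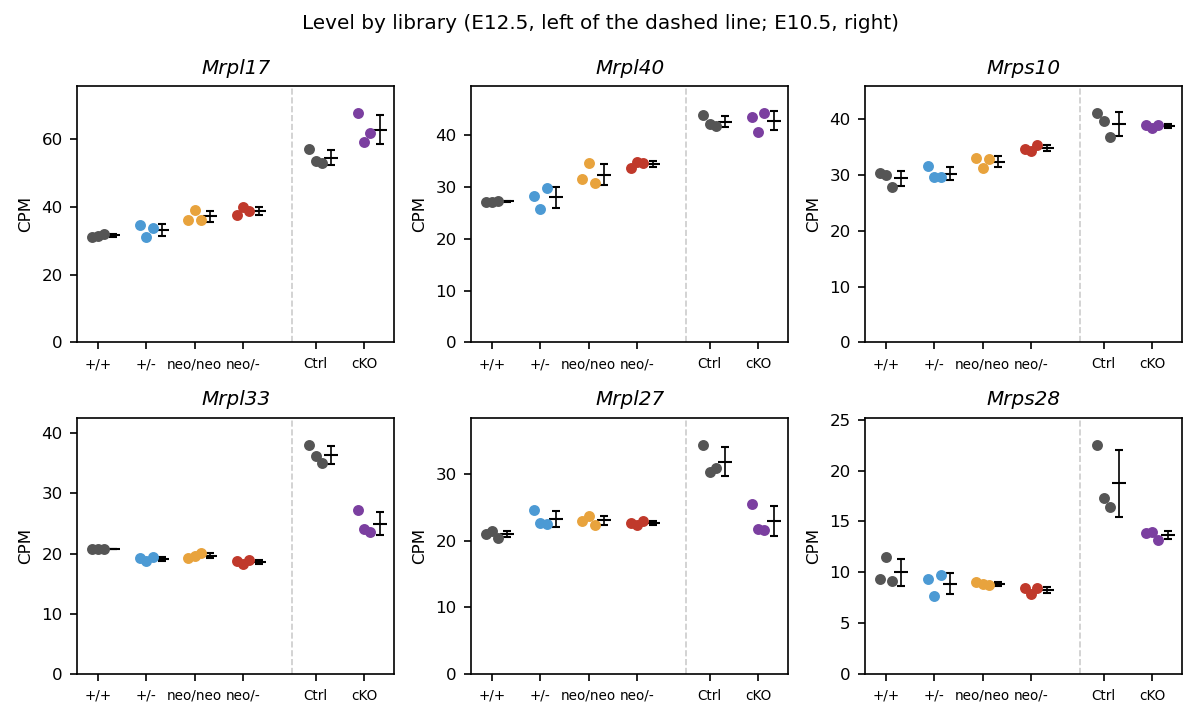
Level in CPM of 6 genes in each library (points) with mean and SD of the 3 libraries (bars), for the 4 genotypes at E12.5 and the 2 groups at E10.5. *Mrpl17*, *Mrpl40* and *Mrps10* are higher in the Chd8 neo/- libraries than in all Chd8 +/+ libraries, and *Mrpl33*, *Mrpl27* and *Mrps28* are lower in all cKO than in all Ctrl libraries.

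The size of the count depended on single libraries. Without Chd8 neo/neo replicate 2, 0 of the 77 genes were called in the mild hypomorph, and leaving out any other library gave 3 to 6. In the severe hypomorph the count was 4 without Chd8 +/+ replicate 1, Chd8 neo/- replicate 2 or Chd8 neo/- replicate 3, 5 without Chd8 +/+ replicate 3, 6 without Chd8 neo/- replicate 1 and 16 without Chd8 +/+ replicate 2. Shares of all genes called in these fits are not given here, so the counts cannot show whether the dependence is particular to the 77 genes. These genes are short, with a median of 1848 exon bases against 3398 for all genes tested. When each library's trend with exon length and GC content was removed, the severe hypomorph had 4 genes higher (*Mrpl17*, *Mrpl40*, *Mrps10* and *Mrps35*) and 2 lower (*Mrpl11* and *Mrps28*), with a median log2 fold change of 0.060. Without Chd8 +/+ replicate 1 the median was 0.026 in the mild and 0.057 in the severe hypomorph.

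Taken over the 77 genes, each library's level was expressed as the median deviation from the Chd8 +/+ mean on the log2 scale. It was -0.07, 0.06 and 0.00 in Chd8 +/+, 0.04, -0.05 and 0.04 in Chd8 +/-, 0.06, 0.11 and 0.06 in Chd8 neo/neo, and 0.10, 0.10 and 0.12 in Chd8 neo/-. The 3 severe hypomorph libraries lay above every Chd8 +/+ and Chd8 +/- library, with Chd8 neo/neo replicate 2 among them. The mild hypomorph overlapped Chd8 +/+, whose own libraries spanned more than the distance between the group means. All Chd8 neo/- embryos expressed Y-linked genes, whereas 1 or 2 of 3 embryos in each other genotype expressed *Xist* without them. A fit with sex as a covariate called 6 genes in the mild and 12 in the severe hypomorph. The share of all genes called in that fit is not given here. The part of the neuronal and blood marker shifts given above in these results was not tested.

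**Figure D3:**
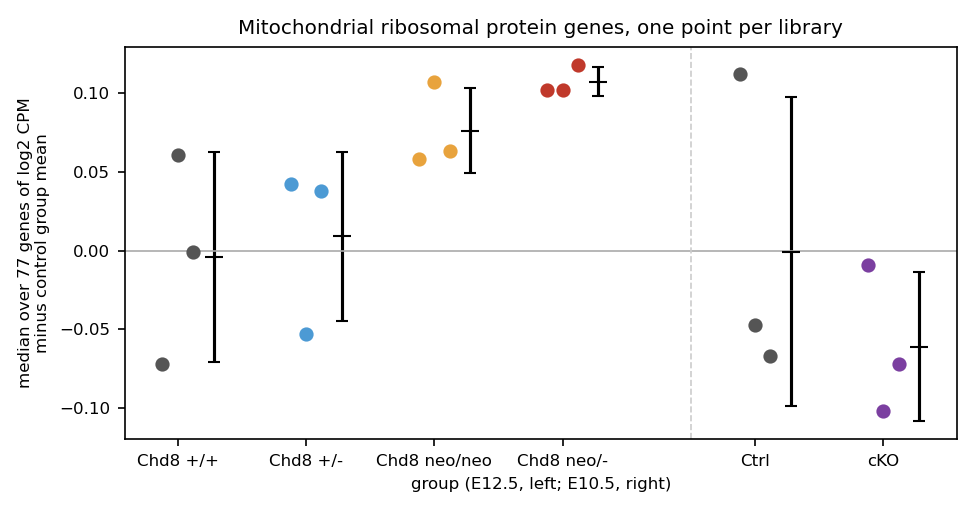
Median over the 77 genes of log2 CPM minus the mean of the stage's control group (Chd8 +/+ at E12.5, Ctrl at E10.5), 1 point per library, with mean and SD per group. Chd8 neo/- libraries lie at 0.10 to 0.12, Chd8 +/+ libraries at -0.07 to 0.06, and the E10.5 groups overlap.

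Directly compared, Chd8 neo/neo and Chd8 +/- differed in 2 of the 77 genes (2.6%), *Mrpl2* and *Mrpl54*. Both were higher in Chd8 neo/neo (log2 fold changes 0.20 and 0.23). That share was near the background, where 2% of all genes were called higher and 3.28% lower. The calls held in 3 and 2 of 14 alternatives, that of *Mrpl54* in none that left out a library. The median log2 fold change was 0.055, against 0.006 for all genes, and 60 of 77 were positive. With the replicate number as a block, *Mrpl54* alone was called. Between the 2 hypomorphs none of the 77 was called by edgeR or by DESeq2, and edgeR called 0.0159% of all genes. At an unadjusted p under 0.05, 2 of the 77 were higher and 3 lower in Chd8 neo/- than in Chd8 neo/neo, against 4.1% and 4.32% of all genes. The smallest unadjusted p values were those of *Mrps6* (log2 fold change 0.23), *Mrps16* (0.17) and *Mrpl3* (-0.11), and their adjusted p did not fall under the threshold. The Chd8 neo/neo libraries of *Mrps6* were 20.6, 21.3 and 20.6 CPM, below the 23.9, 23.1 and 26.4 of Chd8 neo/-.

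**Figure D4:**
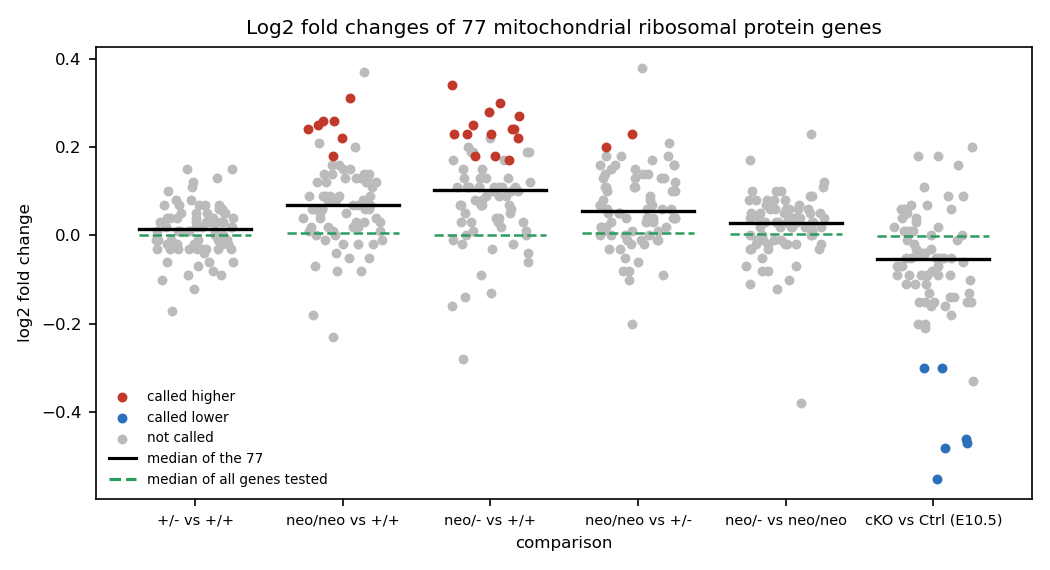
Log2 fold change of each of the 77 genes (points) in 6 comparisons, coloured by the edgeR call, with the median of the 77 (solid line) and of all genes tested (dashed line). The median is 0.103 in neo/- vs +/+ with 14 genes called higher, and -0.054 in cKO vs Ctrl with 6 genes called lower.

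The promoters of the 3 genes with the most stable calls in the severe hypomorph are shown to let their sequence be read beside their values. They are the 200 bases before the RefSeq start on GRCm38.p6, 5′ to 3′ on the gene's strand, and capitals mark a searched motif lying within them.
Mrpl17, chr7:105811088-105811287, - strand: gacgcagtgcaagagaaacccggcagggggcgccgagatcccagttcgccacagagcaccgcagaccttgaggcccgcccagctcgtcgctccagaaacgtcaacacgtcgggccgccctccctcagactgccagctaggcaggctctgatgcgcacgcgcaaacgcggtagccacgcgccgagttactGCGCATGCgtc
Mrpl40, chr16:18876638-18876837, - strand: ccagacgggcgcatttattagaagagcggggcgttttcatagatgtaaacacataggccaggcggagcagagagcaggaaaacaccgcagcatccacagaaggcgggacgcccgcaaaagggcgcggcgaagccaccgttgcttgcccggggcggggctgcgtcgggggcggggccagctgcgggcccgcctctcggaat
Mrps10, chr17:47368997-47369196, + strand: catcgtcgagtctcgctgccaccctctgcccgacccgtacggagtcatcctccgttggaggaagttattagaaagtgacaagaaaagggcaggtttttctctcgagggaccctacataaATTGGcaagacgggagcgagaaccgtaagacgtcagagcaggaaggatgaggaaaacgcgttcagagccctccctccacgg
In *Mrpl17* the capitals mark an NRF1 motif directly before the start, and in *Mrps10* an NF-Y motif. No searched motif was found in the *Mrpl40* window. That gene starts 270 bases from *Hira*, which is transcribed in the opposite direction.

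NRF1 and GABP, an ETS factor, are known regulators of nuclear genes for mitochondrial proteins, and YY1 and NF-Y bind many promoters of broadly expressed genes. Their core motifs were searched on both strands from 250 bases before to 50 after the start. Of the 77 genes, 68 matched the RefSeq table, with 74 promoter windows. GCATGCGC (NRF1) was found in 10.8% of these windows, against 4.55% of windows of all genes tested and 2.71% of all 32851 windows in the table. CCGGAAGT (ETS) was found in 16.2%, against 6.75% and 3.89%. AAGATGGC (YY1) was found in 16.2%, against 3.74% and 2.75%. ATTGG (NF-Y) was found in 39.2%, against 37.3% and 37.4%. Of the 77 genes, 19 (24.7%) start within 1000 bases of a gene on the opposite strand transcribed away from them, against 13.3% of genes tested, among them *Mrps12* beside the seryl-tRNA synthetase gene *Sars2* and *Mrpl43* beside the mitochondrial helicase gene *Twnk*.

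To ask how the same genes behaved after conditional deletion, cKO and Ctrl tissue was compared at E10.5. None of the 77 genes was upregulated and 6 (7.79%) were downregulated, against 5.75% and 5.7% of 18435 genes tested, so that the share called lower was close to that of all genes. The median log2 fold change was -0.054, against -0.002, with 54 of 77 negative and a range of -0.55 to 0.20. Without Ctrl replicate 1 the median was -0.014, and leaving out any other library gave -0.087 to -0.044. In 16 genes every cKO library was below every Ctrl library, against 16.6% of all genes, and in 3 above, against 15.7%. At an unadjusted p under 0.05, 4 were higher and 11 lower, against 13.8% and 13.6% of all genes, so that the share of lower genes was again near the background. The downregulated genes were 4 large subunit genes (*Mrpl33*, *Mrpl27*, *Mrpl11* and *Mrpl16*), the small subunit gene *Mrps28*, and *Mrps36*.

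*Mrpl33* (ENSMUSG00000106918, chr5:31596935-31664384, plus strand) was 38.05, 36.2 and 35.0 CPM in Ctrl and 27.2, 24.2 and 23.5 in cKO. The groups stood well apart, with a log2 fold change of -0.55 with an SE of 0.0771 (edgeR adjusted p = 0.00194), and the call held under all 12 alternatives. *Mrpl27* (ENSMUSG00000024414, chr11:94653767-94660089, plus strand) was 34.4, 30.3 and 30.9 CPM in Ctrl and 25.5, 21.7 and 21.6 in cKO, a log2 fold change of -0.48 with an SE of 0.0876 (edgeR adjusted p = 0.00754). *Mrps36* (ENSMUSG00000061474, chr13:100735955-100744659, minus strand) was 22.99, 20.67 and 20 CPM in Ctrl and 15.8, 13.8 and 16.5 in cKO (log2 fold change -0.47 with an SE of 0.0932, edgeR adjusted p = 0.0109). In both of these genes the groups were separate, and both calls held in 11 of 12 alternatives.

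*Mrps28* was 22.5, 17.3 and 16.4 CPM in Ctrl and 13.8, 13.97 and 13.2 in cKO (log2 fold change -0.46, edgeR adjusted p = 0.0284). *Mrpl11*, a stalk base protein, was 84.5, 76.3 and 73.4 CPM in Ctrl and 66.0, 63.6 and 60.6 in cKO (log2 fold change -0.30, edgeR adjusted p = 0.0179). *Mrpl16*, a protein near the peptidyl transferase centre, was 32.4 ± 2.72 CPM in Ctrl and 26.3 ± 1.59 in cKO (SD, n = 3, edgeR adjusted p = 0.0383). The calls of *Mrps28*, *Mrpl11* and *Mrpl16* held in 9, 10 and 5 of 12 alternatives. In each of these genes the first Ctrl library was the highest, and across the 77 genes that library was above the Ctrl mean in 73. The library medians were 0.11, -0.05 and -0.07 in Ctrl and -0.01, -0.10 and -0.07 in cKO, so that the groups overlapped as a set. Each Ctrl pool expressed mainly *Xist* or mainly Y-linked genes, with *Xist* at 1779, 3.086 and 2141 CPM and summed Y-linked genes at 0.9173, 248 and 1.396. Every cKO pool expressed both, with *Xist* at 1069, 707.8 and 772.3 CPM and summed Y-linked genes at 69.79, 135.4 and 95.16. No fit with sex was made at E10.5. The part of the higher mesenchymal markers and of embryo sex in the cKO results was not tested.

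Without Ctrl replicate 1, 5 genes remained lower (*Mrpl11*, *Mrpl27*, *Mrpl33*, *Mrps28* and *Mrps36*) and *Mrps33* was called higher. Without cKO replicate 2 only *Mrpl33* was called, and without cKO replicate 3 *Mrpl27*, *Mrpl33* and *Mrps36*. *Mrpl17* was 57.1, 53.6 and 53.1 CPM in Ctrl and 67.7, 59.3 and 61.8 in cKO, and did not pass the edgeR test (log2 fold change 0.20, edgeR adjusted p = 0.0704). DESeq2 called it higher, with 8 genes lower.

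The promoters of the 3 genes with the most stable calls in cKO are given in the same way as those above.
Mrpl33, chr5:31613751-31613950, + strand: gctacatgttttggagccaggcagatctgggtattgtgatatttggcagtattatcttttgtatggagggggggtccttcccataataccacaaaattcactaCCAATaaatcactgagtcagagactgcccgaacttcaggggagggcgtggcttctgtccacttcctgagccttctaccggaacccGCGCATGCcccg
Mrpl27, chr11:94653591-94653790, + strand: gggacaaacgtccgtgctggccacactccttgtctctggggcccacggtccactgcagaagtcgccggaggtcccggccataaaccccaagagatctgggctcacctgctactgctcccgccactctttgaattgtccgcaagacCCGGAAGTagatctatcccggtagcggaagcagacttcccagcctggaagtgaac
Mrps36, chr13:100744660-100744859, - strand: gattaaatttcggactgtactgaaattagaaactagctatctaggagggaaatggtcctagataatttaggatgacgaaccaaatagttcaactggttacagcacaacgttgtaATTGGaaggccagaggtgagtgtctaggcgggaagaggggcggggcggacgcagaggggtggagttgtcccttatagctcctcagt
The capitals mark an NF-Y and an NRF1 motif in *Mrpl33*, an ETS motif in *Mrpl27* and an NF-Y motif in *Mrps36*. The RefSeq start of *Mrpl33* lies inside the longer gene model used for counting. There an ETS motif runs across the start and is only partly within the bases shown.

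No gene was called both in a hypomorph and in cKO, and 54 of the 77 were called in none of the 6 comparisons. The severe hypomorph and cKO comparisons share no library, and their log2 fold changes across the 77 genes had a Pearson's r of 0.56 and a Spearman's rho of 0.47, where all 17703 genes tested at both stages gave 0.20 and 0.19. Genes are not independent replicates, and the points share gene length and base composition. The fold changes had the same sign in 36 of the 77 (46.8%), against 56.6% of all genes. The medians were 0.103 and -0.054, the latter -0.014 without Ctrl replicate 1. *Mrpl17* was at the upper end and *Mrpl33* and *Mrps28* at the lower end in both, and *Mrpl27* was positive in the hypomorphs and negative in cKO.

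**Figure D5:**
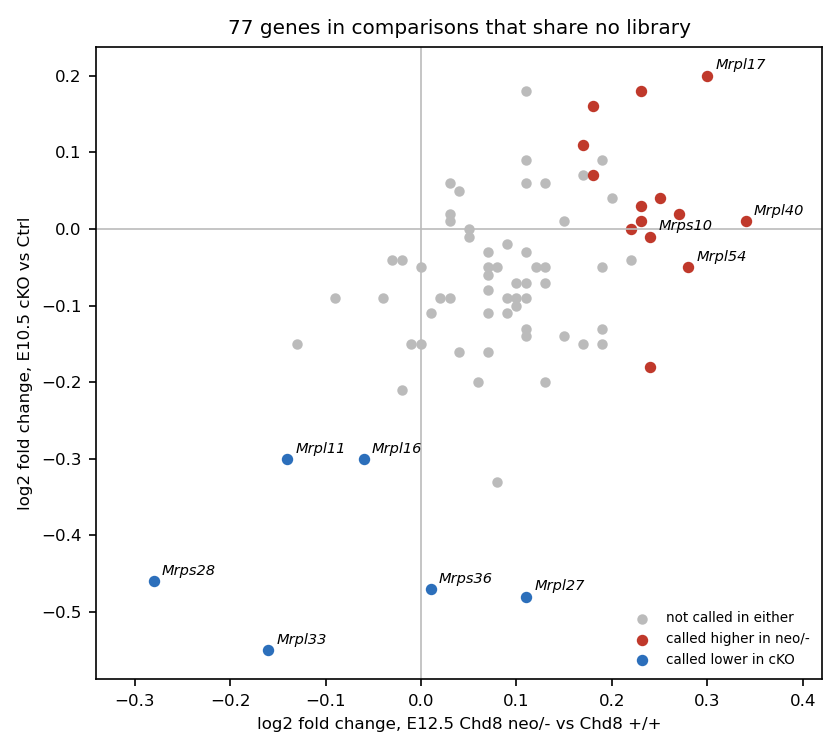
Log2 fold change of each of the 77 genes in E12.5 Chd8 neo/- vs Chd8 +/+ (horizontal) and in E10.5 cKO vs Ctrl (vertical), coloured by the edgeR call. *Mrpl17* lies at 0.30 and 0.20, *Mrpl33* at -0.16 and -0.55, and *Mrpl27* at 0.11 and -0.48.

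Genes that act around the mitochondrial ribosome were examined next. Of 20 mitochondrial aminoacyl-tRNA synthetase genes, which charge the transfer RNAs it uses, 5 were upregulated in the severe hypomorph and 0 downregulated, against the 5.48% and 5.99% of all genes given above. These were *Ears2*, *Iars2*, *Pars2*, *Vars2* and *Wars2*, which also passed against the same Chd8 +/+ libraries in the mild hypomorph. Their log2 fold changes in the severe hypomorph ran from 0.15 to 0.38, the largest that of *Wars2* (edgeR adjusted p = 0.00244). In that order, the calls held in 6, 8, 14, 9 and 14 of 14 alternatives in the severe hypomorph. In the mild hypomorph they held in 12, 8, 8, 9 and 10 of 14. In cKO, *Ears2*, *Pars2* and *Wars2* were upregulated (log2 fold changes 0.31, 0.37 and 0.43) and *Hars2* downregulated (-0.21), against 5.75% and 5.7% of all genes. The calls of these 4 genes held in 9, 7, 12 and 7 of 12 alternatives.

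Of 26 assembly and ribosomal RNA modification genes, 1 was upregulated in the mild and 3 in the severe hypomorph, against 3.71% and 5.48% of all genes, so that the mild hypomorph's share was near the background. *Mettl15*, a methyltransferase for the small subunit RNA, rose from 4.61 ± 0.394 CPM in Chd8 +/+ to 7.42 ± 0.177 in the mild and 9.36 ± 0.404 in the severe hypomorph (SD, n = 3). On the log2 scale it changed by 0.69 and 1.02 (edgeR adjusted p = 0.00138 and 1.62e-05). The others in the severe hypomorph were *Malsu1* (0.29) and *Tfb1m* (0.26), held in 4 and 8 of 14 alternatives. In cKO 3 of the 26 were downregulated, against 5.7% of all genes, namely *Mettl17* (log2 fold change -0.63, edgeR adjusted p = 0.000548), *Mterf3* (-0.30) and *Fastkd2* (-0.19). These calls held in 12, 10 and 2 of 12 alternatives. Of the 5 ribosomal protein genes with other symbols, *Aurkaip1* was upregulated in the severe hypomorph (0.20, edgeR adjusted p = 0.0431), against 5.48% of all genes. Its call held in 4 of 14 alternatives. Of 11 translation factor genes, *Guf1* was downregulated in cKO (-0.28), 1 of 11 against 5.7% of all genes, and none was called in the hypomorphs against Chd8 +/+.

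Of 14 genes for transcription and maintenance of the mitochondrial genome, *Mterf2* and *Ssbp1* were upregulated in the severe hypomorph (log2 fold changes 0.24 and 0.17), against 5.48% of all genes. In cKO *Twnk* was upregulated (0.22, held in 3 of 12 alternatives) and *Pnpt1* downregulated (-0.34), 1 of 14 in each direction, near the 5.75% and 5.7% of all genes. Among 12 regulators of mitochondrial genes, both subunits of GABP were upregulated in all 3 of these mutants, where 3.71%, 5.48% and 5.75% of all genes were. *Gabpa* had log2 fold changes of 0.22, 0.29 and 0.37 in the mild hypomorph, the severe hypomorph and cKO, and *Gabpb1* had 0.23, 0.31 and 0.36 (largest edgeR adjusted p = 0.0139). *Ppargc1a*, a coactivator of mitochondrial biogenesis, was downregulated in the mild and severe hypomorphs (-0.43 and -0.31). That was 1 of 12 in each, near the 4.45% and 5.99% of all genes called lower. Its calls held in 11 and 5 of 14 alternatives, in the severe hypomorph in none that left out a library. *Mycn* was upregulated in the mild hypomorph (0.24), held in 6 of 14 alternatives.

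RNAs of the mitochondrial genome itself were measured as well, among them the messages that these ribosomes translate. The list of these genes is longer than the set of protein-coding messages, so the medians and sums below are not of messages alone. Of 15 mitochondrially encoded genes, none was called in any mutant against its controls by edgeR. In cKO the 14 tested all had positive fold changes, with a median of 0.934 on the log2 scale and 10 at an unadjusted p under 0.05. The summed level was 10180, 19450 and 18680 CPM in the cKO libraries, against 7549 to 9575 in Ctrl. The first cKO library thus lay close to the highest Ctrl library. Chd8 neo/neo and Chd8 +/- differed in 4 of these genes, *mt-Nd4*, *mt-Nd5*, *mt-Nd6* and *mt-Co1*, all lower in Chd8 neo/neo, with log2 fold changes of -0.32, -0.30, -0.32 and -0.24. Of all genes, 3.28% were called lower in that comparison. The calls held in 9, 10, 9 and 5 of 14 alternatives, and all 4 were lost with only these groups in the fit. The libraries were made from selected mRNA, and the nuclear genome holds copies of mitochondrial sequence, so these levels depend on the preparation and counting.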

How the data were processed

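RNA was measured in 18 libraries, 12 from E12.5 neocortex and 6 from E10.5 telencephalon. Per the paper's methods and the file headers, the authors trimmed adaptors with Trim Galore 0.4.1, aligned paired reads to GRCm38.p4 with TopHat 2.1.0 and counted them on genes with featureCounts 1.5.0. The command in the E12.5 header sets no strand option, so antisense reads cannot be told apart, and reads overlapping several genes were left out. The E10.5 command was not given in the sources used here. The authors deposited raw counts per gene and sequencing run, and the 2 runs of a library were summed here. All 36 run columns were used. Symbols came from the reference gene table and matched 46005 of 46603 identifiers.

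Counts were analysed with edgeR 4.0.16 in R 4.3.3 (filterByExpr, TMM scaling, robust quasi-likelihood test, Benjamini-Hochberg adjustment over all genes tested, threshold 0.05). The 12 E12.5 libraries were fitted together and the 6 E10.5 libraries apart. Levels are TMM-scaled CPM. On simulated data with 200 changed genes, edgeR recovered 82.5% for Chd8 neo/neo against Chd8 +/+ (18810 genes, 10 false calls). For cKO against Ctrl it recovered 75% (18435 genes, 24 false calls). The median absolute log2 fold change in these simulations was 1.012 and 0.998. Those of the ribosomal protein genes ran from -0.23 to 0.37 and from -0.55 to 0.2 in these comparisons. The recovery of changes that small was not tested. Members and gene lists were chosen with earlier results of these data known. Genes were named by a rule: every called gene up to 10 in a comparison, otherwise the 6 with the smallest adjusted p and the 6 with the largest change, the 5 highest and 3 lowest by level, the 3 smallest p where none was called, and a few by role. *Mrpl22*, *Mrpl14*, *Mrpl32*, *Mrps34* and *Mrps5* were named after their values were seen. Per the paper, replicates came from separate embryos. Replicate numbers were checked for pairing: only Chd8 neo/neo and Chd8 +/- had every correlation of same-numbered deviations over 0.1 (0.108, 0.195 and 0.199). Alternatives were DESeq2 1.42.0, other scaling, no filter, the replicate block, removal of length and GC trends (loess, span 0.5) and leaving out each library. A sex covariate was an alternative at E12.5 only. Promoter sequences are from RefSeq.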

Additional observations from a re-analysis of the deposited data

Results flagged for a closer look

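*Mrpl27* differed from controls in opposite directions at the 2 stages. Its log2 fold change was 0.14 in the mild and 0.11 in the severe hypomorph against Chd8 +/+, with every hypomorph library above every Chd8 +/+ library, and -0.48 in cKO against Ctrl, with every cKO library below every Ctrl library. Neither hypomorph difference passed the edgeR test (adjusted p = 0.118 and 0.193), the cKO difference did, and the difference between the stages was not tested.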

How the results depend on the processing

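In Chd8 neo/neo against Chd8 +/+ (7 genes), 1 was called with only these groups in the fit. With the replicate block and length and GC trends removed 4 were called, 3 of them among the 7. In Chd8 neo/- against Chd8 +/+ (14 genes), 6 were called with the trends removed and 5 with the replicate block as well. Of these, 3 and 4 were among the 14. In Chd8 neo/neo against Chd8 +/- (2 genes), *Mrpl2* alone was called with RLE scaling and *Mrpl54* alone with the replicate block. With the trends removed both were lost and 3 other genes were called (*Mrpl17*, *Mrps35* and *Mrps9*). With the block and trends removed both were lost and *Mrps9* alone was called. The count was 0 without a count filter, with only these groups or with sex as a covariate. In cKO against Ctrl (6 genes), the replicate block gave 10, also with trends removed, and these included 6 and 5 of the 6. Leaving out 1 library gave 0 to 6, 4 to 16, 0 to 2 and 1 to 8 genes in these comparisons, and a median log2 fold change of 0.057 to 0.142 in Chd8 neo/- against Chd8 +/+, lowest without Chd8 +/+ replicate 1. The median was 0.026 to 0.111 in Chd8 neo/neo against Chd8 +/+, also lowest without that library, and -0.087 to -0.014 in cKO against Ctrl, nearest 0 without Ctrl replicate 1. Shares of all genes called under these alternatives are not given here, and the causes were not tested. DESeq2 called 10 (*Mrpl32* lower), 16, 3 and 9 (*Mrpl17* higher). The comparisons with 0 called genes stayed at 0. Among the gene values recomputed under these alternatives only *Mrps34* in Chd8 neo/- changed sign (-0.127 to 0.092 with 1 library left out). Whether replicate numbers pair any samples is not stated, and the correlations given above for Chd8 neo/neo and Chd8 +/- were not tested. The paper describes different crosses for these genotypes.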
